A study of Mus musculus with 6 samples.

Results

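Cytochrome P450 enzymes are heme-containing monooxygenases, and the account below covers 89 of their genes in testes of mice kept on a liquid diet with or without ethanol. The genes are the protein-coding entries of the table whose symbol is Cyp followed by a family number, a subfamily letter and at most a final number, and 89 of 45777 listed genes met this rule. Cyp11a1, Cyp17a1, Cyp26b1, Cyp51 and Cyp2e1 were left out by the rule, and 5 further protein-coding symbols with a trailing letter (Cyp3a41a, Cyp3a41b, Cyp4a12a, Cyp4a12b and Cyp4a30b) fell outside it. Total RNA of wild-type mouse testis was sequenced in 3 libraries from ethanol-fed mice and in 3 from control-fed mice, and the comparison asks what ethanol feeding changes in the RNA of the testis. All mice first took the control form of the liquid diet, named LDC in the labels, for 5 days, and then received 10 mL of diet per head and day for 16 weeks. The sources used here do not give the ethanol content of the diet, the strain, the age or the number of animals. Nothing says that libraries of 1 diet stem from different mice, so a p-value covers only how far these samples vary, and that variation may be technical.

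P450 enzymes insert an oxygen atom into fatty compounds, and each family has its own range of substrates. Families 1 to 3 mostly oxidise drugs and other foreign compounds in the liver, family 4 hydroxylates fatty acids and eicosanoids, and the higher families act on cholesterol, bile acids, steroid hormones, vitamin D and retinoic acid. In the endoplasmic reticulum the electrons come from P450 oxidoreductase, and in mitochondria from ferredoxin and its reductase. In the testis the family is best known for steroid hormone synthesis in Leydig cells and for the control of retinoic acid around germ cells.

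Total counts ranged from 38935654 to 47420249 per library. Markers of the labelled tissue were present, with the 6 germ cell markers (Ddx4, Dazl, Sycp3, Acrv1, Prm1 and Tnp1) summing to 4571 to 5448 CPM. CPM here is the read count relative to the size of its library, with library sizes adjusted by TMM factors. For some marker lists of other cell types the sums did not overlap between the diets. The 5 Sertoli markers summed to 193.2 to 239.4 CPM on control diet and 239.5 to 277.7 CPM on ethanol, and the 4 hemoglobin genes to 12.1 to 27.4 and 34.2 to 43.5 CPM. The Sertoli sums only just separated. Their most abundant marker, Amhr2, was at 121.8 ± 19.9 and 146.9 ± 20.9 CPM (SD, n = 3), with overlap. Sox9 and Rhox5 overlapped too, and Wt1 and Cldn11 did not. The 7 adipocyte markers overlapped between the diets, at 10.8 to 20.2 CPM on control diet and 17.2 to 47.5 CPM on ethanol. The highest sum was in ethanol library 1, and ethanol libraries 2 and 3 were at 20.3 and 17.2 CPM. Adipoq, the most abundant of these markers, was at 11.6 ± 2.17 CPM on control diet and 12.2 ± 1.34 CPM on ethanol (SD, n = 3). All 7 had higher means on ethanol. Cfd was at 0.431 ± 0.747 and 5.44 ± 6.13 CPM, and Fabp4 at 0.730 ± 0.753 and 4.51 ± 4.79 CPM, both with overlap. The 5 Leydig markers lay at 446.7 to 466.1 and 464.7 to 524.7 CPM. In bulk tissue fewer cells of a type and less RNA per cell cannot be told apart, and the part of these shifts in the values below was not tested.

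Most of the family was silent or nearly so in testis. Only 18 of the 89 genes had a mean of at least 1 TPM over the 6 libraries, where TPM is the authors' abundance scaled to transcript length and library size. Another 19 were below that level but had enough reads to be tested between the diets. A further 26 had reads but too few for the test, at most 53 reads in all libraries together and a mean of at most 0.155 TPM. The last 26 genes had 0 reads in every library. A count of 0 allows up to 3 reads, or 0.0641 to 0.0755 CPM depending on the library, and this limit covers counting error only.

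**Figure D1:**
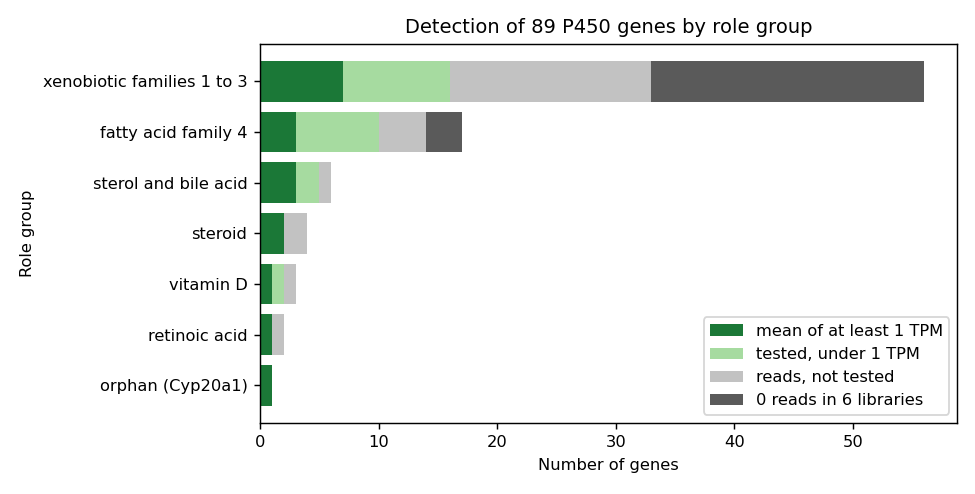
Number of P450 genes in each role group (horizontal bars, in genes) split by detection: a mean of at least 1 TPM, tested but under 1 TPM, reads but not tested, and 0 reads in 6 libraries. Families 1 to 3, without Cyp2r1, hold 56 of the 89 genes and 23 of the 26 genes without reads. All 6 sterol and bile acid genes have reads. Cyp2r1 is counted with vitamin D.

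Detection differed between the role groups. Cyp2r1 of family 2 was placed with vitamin D and is left out of the counts for families 1 to 3. Of the 56 other genes of families 1 to 3, 7 reached 1 TPM and 23 had 0 reads. Much of this silence lay in the gene clusters best known from drug metabolism in liver. The Cyp2c subfamily on chromosome 19 had 15 genes, of which 2 reached 1 TPM, Cyp2c23 and Cyp2c55, and 7 had 0 reads. Cyp2c23 lies apart from the cluster. It starts at position 44005022, and the rest of the subfamily starts between 39006940 and 40153361. The Cyp2d cluster on chromosome 15 had 8 genes, of which 2 were tested and 4 had 0 reads. Of the 7 Cyp3a genes on chromosome 5 only Cyp3a57 was tested, at 0.452 TPM. The Cyp4f genes stood apart from this pattern, with 8 of 9 tested and none at 0 reads. Another fatty acid subfamily, Cyp4a with 5 genes on chromosome 4, had 0 tested members.

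The order of the levels was led by genes of several roles. Cyp2d26, of the drug-metabolising 2D subfamily, had the highest mean at 20.5 ± 2.34 TPM (SD, n = 6). Cyp4f39, which hydroxylates very long fatty acids of the skin barrier lipids, followed at 17.5 ± 3.78 TPM. The libraries of the 2 genes overlapped in level. Cyp2a12, a hydroxylase of steroids and bile acids, was at 9.14 ± 0.635 TPM, Cyp27a1, the mitochondrial sterol side-chain hydroxylase, at 8.70 ± 0.853 TPM, and Cyp1b1, an oxidase of estrogens and polycyclic compounds, at 8.15 ± 0.828 TPM. These 3 neighbours in the order differed by about their spread or less. Cyp2r1, which makes the storage form of vitamin D, and Cyp19a1, the aromatase that turns androgens into estrogens, came next at 6.75 ± 0.512 and 6.10 ± 1.14 TPM. From there the levels ran down through Cyp39a1 (4.65 TPM), Cyp4f13 (3.78 TPM), Cyp46a1 (3.57 TPM), Cyp2d22 (3.50 TPM), Cyp2u1 (3.33 TPM) and Cyp20a1 (2.96 TPM). Below these were Cyp21a1 (1.76 TPM), Cyp2c23 (1.71 TPM), Cyp26a1 (1.49 TPM), Cyp4f37 (1.43 TPM) and Cyp2c55 (1.24 TPM). Just below the limit of 1 TPM were Cyp2c29 at 0.923 TPM and Cyp4v3 at 0.886 TPM.

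**Figure D2:**
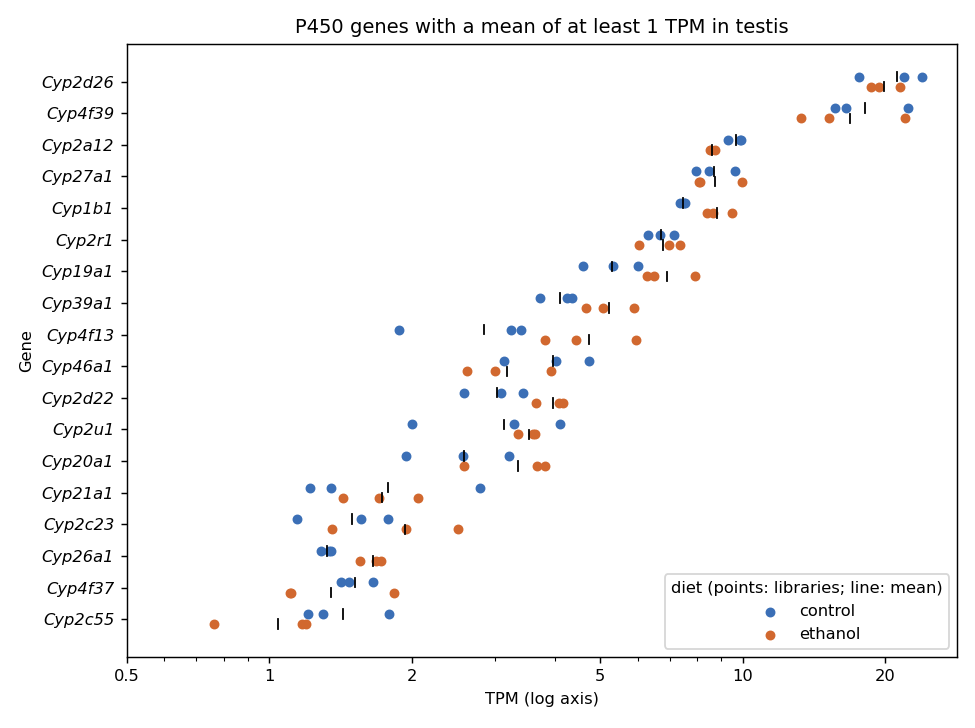
TPM on a log axis for the 18 P450 genes with a mean of at least 1 TPM, 1 point per library, blue for control and orange for ethanol, with a line at each diet's mean. Cyp2d26 and Cyp4f39 lead in both diets, and the points of the 2 diets interleave for Cyp2d26, Cyp4f39, Cyp27a1 and Cyp2r1.

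The summed level of the 89 genes was 115.9 ± 11.3 TPM in controls and 119.4 ± 9.50 TPM with ethanol (SD, n = 3). The libraries were at 114.4, 127.9 and 105.4 TPM on the control diet and at 128.3, 120.5 and 109.4 TPM on the ethanol diet, so that the diets overlapped. The 4 most abundant genes made up 49.7% of this sum in controls and 45.2% with ethanol.

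The neighbours Cyp2a12 and Cyp2a22 shared sequence but not level. Cyp2a12 and Cyp2a22 lie near each other on chromosome 7, and 20.1% of the 50-base windows of Cyp2a12 transcripts also occur in Cyp2a22, the only gene that shares any with it. Cyp2a12 had 413, 345 and 392 reads in the control libraries and 274, 317 and 323 with ethanol, while Cyp2a22 had 0 reads in all 6. The 250 bases before their start sites are shown because they are nearly alike although only 1 of the genes is detected. Capitals mark the TATA box letters TATAAA. The sequences are from RefSeq on GRCm38.p6, at chr7:27028840-27029089 on the plus strand for Cyp2a12 and chr7:26939387-26939636 on the minus strand for Cyp2a22.
Cyp2a12: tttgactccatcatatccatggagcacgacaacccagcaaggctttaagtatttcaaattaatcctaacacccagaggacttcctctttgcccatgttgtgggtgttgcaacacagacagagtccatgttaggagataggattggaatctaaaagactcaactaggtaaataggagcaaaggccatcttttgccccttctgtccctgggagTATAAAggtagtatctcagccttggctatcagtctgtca
Cyp2a22: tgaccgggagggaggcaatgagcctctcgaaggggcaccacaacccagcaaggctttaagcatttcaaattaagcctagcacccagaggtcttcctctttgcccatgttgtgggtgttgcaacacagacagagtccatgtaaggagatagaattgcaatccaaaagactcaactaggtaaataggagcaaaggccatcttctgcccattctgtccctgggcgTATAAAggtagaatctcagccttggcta
A global alignment of the pair had 216 identical bases, 23 mismatches and 22 gap positions. The TATA box letters begin at position -39 in Cyp2a12 and at -28 in Cyp2a22, counted from the start site. TATAAA or its reverse TTTATA occurs in 12.4% of the 32851 windows of the same length in the RefSeq table and in 26 of the 79 windows of members, which came from the 70 members with an entry in that table. Cyp2a22 also overlaps the pseudogene Cyp2a21-ps on the opposite strand over 7754 bases, and that pseudogene was at 0 TPM. How reads in that overlap were counted is not known, so the 0 reads of Cyp2a22 do not show that it is silent. The sources used here do not give how reads matching both Cyp2a12 and Cyp2a22 were assigned, so the split between them is uncertain.

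Other pairs share sequence too, and their counts carry the same uncertainty. Cyp2c65 and Cyp2c66 on chromosome 19 share about as much, 20.2% of the Cyp2c65 windows, and were close in level at 0.882 and 0.812 TPM. The share of windows found in other genes was 23.8% for Cyp21a1, mostly in the pseudogene Cyp21a2-ps, and 19.7% for Cyp4f37, mostly in Cyp4f16. It was 12.3% for Cyp2u1, mostly in the antisense gene 4930534D22Rik, and 9.49% for Cyp2d26. Cyp1b1, Cyp19a1, Cyp26a1, Cyp27a1, Cyp2r1, Cyp39a1, Cyp46a1, Cyp4f39, Cyp2c23 and Cyp7a1 shared 0 windows with any other gene of the GENCODE M21 transcripts. Of the tested members, Cyp24a1 overlaps a much more abundant gene on the opposite strand, Pfdn4 at 19.8 TPM.

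Between the diets, no P450 gene passed the test over all genes. edgeR's quasi-likelihood test was fitted on 25073 genes, of which 37 were members, and it called 0 members at a Benjamini-Hochberg adjusted p under 0.05, as it called 0% of all genes. The lowest adjusted p of a member was 0.187. DESeq2 and limma-voom also called 0 members, against 1.32% and 0.0199% of all genes, but DESeq2 gave no adjusted p for 21 of the 37. At an unadjusted p under 0.05 edgeR had 5 of 37 members, DESeq2 2 (background 11.2%) and limma-voom 6 (background 13.4%). The 5 members of edgeR are 13.5% of those tested, beside 13.3% of all tested genes, a share near that background. In the single directions there were 3 members higher with ethanol, where the background is 7.45%, and 2 lower, where it is 5.89%. The 2 lower members, Cyp7a1 and Cyp2b19, came to be tested partly through their high control libraries, so their direction carries little weight.

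The direction of the differences was mixed as well. The log2 fold change, or fitted log2 difference, is edgeR's estimate of ethanol minus control. Of the 37 tested members 17 had a value above 0 and 20 below, beside 51.5% above 0 among all genes, and the median was -0.05 beside 0.0065 over all genes tested. The diets did not overlap for 6 tested members, or 16.2%, beside 18.8% of all genes. These were Cyp4f13, Cyp2d22 and Cyp26a1 with the higher values on ethanol (background 9.76%) and Cyp7a1, Cyp2b19 and Cyp2c55 with the lower (9.01%). On the authors' TPM in place of scaled counts the numbers were 6 higher and 4 lower, where the background is 11.7% and 4.41%. Those added on TPM were Cyp1b1, Cyp19a1 and Cyp39a1, higher with ethanol, and Cyp2a12, lower. Overlap is given on scaled counts for each gene below. Cyp7a1 and Cyp2b19 passed the filter on low counts through the control libraries, where they were high, so for them a lower value with ethanol was part of how they came to be tested.

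**Figure D3:**
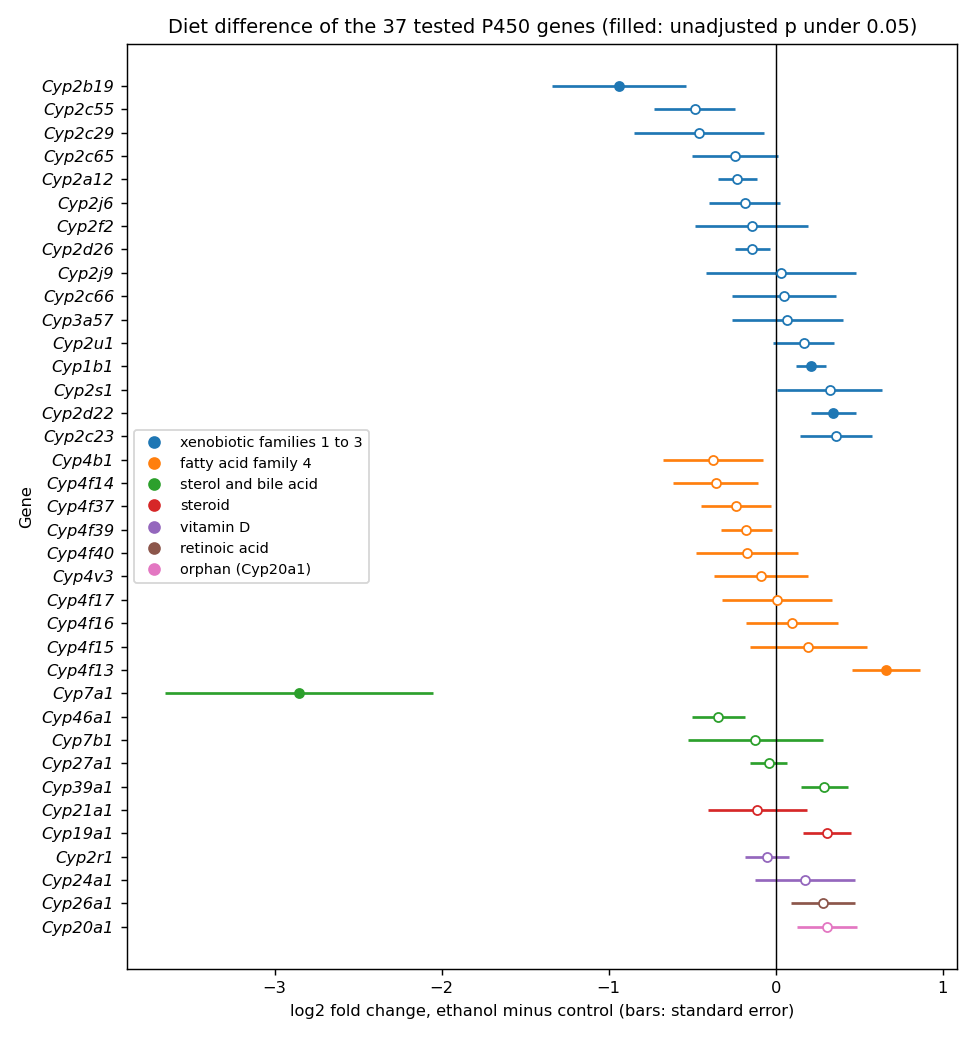
Log2 fold change, ethanol minus control, of the 37 tested P450 genes, ordered by role group, with bars for the standard error and filled points for an unadjusted edgeR p under 0.05. The 5 filled points are Cyp2b19, Cyp1b1, Cyp2d22, Cyp4f13 and Cyp7a1, and the genes of each role group lie on both sides of 0 in families 1 to 4.

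In families 1 to 3 without Cyp2r1, 8 of 16 tested genes were above 0 and 8 below, with a median of -0.05. Cyp2d22 (Gene ID 56448; chromosome 15, 82370527 to 82380260 on GRCm38), another drug-metabolising enzyme of the 2D subfamily, was at 4.60, 4.76 and 3.97 CPM on control diet and 5.49, 5.19 and 6.26 CPM on ethanol. Each ethanol library was above each control. Its log2 fold change was 0.35 (SE 0.13, edgeR adjusted p = 0.301). Its more abundant relative Cyp2d26, at 18.4 ± 1.88 CPM on control diet and 16.7 ± 1.61 CPM on ethanol (SD, n = 3), stood at -0.14 (SE 0.11), with the diets overlapping. With 1 library left out its value ran from -0.23 to -0.06. The difference between the 2 relatives was not tested.

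Cyp1b1 (Gene ID 13078; chromosome 17, 79706940 to 79715061) was the only family 1 gene with a substantial level. It was at 18.0, 16.7 and 18.7 CPM on control diet and 18.5, 21.8 and 21.5 CPM on ethanol. Ethanol library 1 lay within the control range and the other two above it. This gave a fitted log2 difference of 0.21 (SE 0.09, edgeR adjusted p = 0.351). Cyp1a1 and Cyp1a2, the classical targets of the aryl hydrocarbon receptor in liver, had 5 and 23 reads in all libraries together and were not tested. The receptor is a ligand-activated transcription factor that binds the core letters GCGTG, and the bases before the starts of Cyp1a1 and Cyp1b1 are shown because both hold that core while only Cyp1b1 is abundant here. Capitals mark GCGTG, or CACGC where it lies on the other strand. The sequences are from RefSeq on GRCm38.p6, chr9:57697363-57697612 on the plus strand for Cyp1a1 and chr17:79715062-79715311 on the minus strand for Cyp1b1. The Cyp1a1 window lies before 1 annotated start, and another start of that gene lies upstream of it.
Cyp1a1: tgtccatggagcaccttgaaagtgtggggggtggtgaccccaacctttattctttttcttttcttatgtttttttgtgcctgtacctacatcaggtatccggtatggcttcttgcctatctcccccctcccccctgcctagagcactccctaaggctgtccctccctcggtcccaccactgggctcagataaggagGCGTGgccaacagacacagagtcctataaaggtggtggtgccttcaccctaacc
Cyp1b1: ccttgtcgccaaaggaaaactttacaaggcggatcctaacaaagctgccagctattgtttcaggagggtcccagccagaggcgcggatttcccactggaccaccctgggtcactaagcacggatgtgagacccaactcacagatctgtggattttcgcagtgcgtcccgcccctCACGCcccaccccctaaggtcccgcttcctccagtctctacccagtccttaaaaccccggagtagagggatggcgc
The core begins at position -54 in Cyp1a1 and -76 in Cyp1b1. It is a common string, found on either strand in 28.2% of all 32851 windows and in 16 of the 79 windows of member genes, so its presence describes the sequence and shows no binding.

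The other members of families 1 to 3 that reached 1 TPM had small or unsteady differences. Cyp2a12 was at 8.83, 7.78 and 9.22 CPM on control diet and 6.90, 7.25 and 7.87 CPM on ethanol, with a fitted log2 difference of -0.23 (SE 0.12, edgeR adjusted p = 0.426). Only ethanol library 3 reached the lowest control. Cyp2c55, which oxidises arachidonic acid, was at 1.39, 1.78 and 1.34 CPM on control diet and 0.755, 1.21 and 1.24 CPM on ethanol, so the diets did not overlap. Its fitted log2 difference of -0.49 (SE 0.24) moved to -0.29 without ethanol library 1. Cyp2c23, an epoxygenase of arachidonic acid, stood at 0.36 (SE 0.22) and Cyp2u1, a fatty acid hydroxylase, at 0.17 (SE 0.18), both with overlapping diets. For Cyp2c23 the value was 0.23 without ethanol library 1. For Cyp2u1 it was 0.33 without control library 2 and -0.03 without control library 3.

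Cyp2b19, an epoxygenase known from skin keratinocytes, had few reads. Its counts were 17, 31 and 20 in controls and 13, 13 and 7 with ethanol, or 0.363, 0.699 and 0.470 CPM against 0.327, 0.297 and 0.171 CPM. All ethanol libraries lay below the controls. The fitted log2 difference was -0.94 (SE 0.40, edgeR adjusted p = 0.342). Of the remaining 8 tested genes of these families under 1 TPM the log2 fold changes lay between -0.46 for Cyp2c29 and 0.32 for Cyp2s1, and none had an unadjusted p under 0.05.

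In family 4, 4 of 10 tested genes were above 0 and 6 below, with a median of -0.13. Cyp4f13 (Gene ID 170716; chromosome 17, 32924688 to 32947415), of the subfamily that hydroxylates fatty acids and leukotrienes, was the member of at least 1 TPM with the smallest p. It was at 3.14, 2.75 and 1.81 CPM on control diet and 4.76, 3.91 and 3.53 CPM on ethanol. The lowest ethanol library was above the highest control. The fitted log2 difference was 0.66 (SE 0.20, 95% interval 0.21 to 1.1, edgeR adjusted p = 0.213). Ethanol library 1, highest for Cyp4f13, was also highest for the adipocyte markers. Without that library the log2 fold change was 0.53 (edgeR adjusted p = 0.347, and 0.104 to 0.443 over all alternatives).

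Other tested Cyp4f genes in the same stretch of chromosome 17 went in both directions. Cyp4f37, Cyp4f14 and Cyp4f40 had negative log2 fold changes, and Cyp4f15, Cyp4f16 and Cyp4f17 positive ones. The more abundant Cyp4f39 also had a negative value. It was at 22.0, 29.2 and 23.3 CPM on control diet and 27.9, 19.8 and 18.3 CPM on ethanol. Ethanol library 1 lay inside the control range and the other two below it. edgeR put the log2 fold change at -0.18 (SE 0.15, edgeR adjusted p = 0.669). It ranged from -0.38 without ethanol library 1 to -0.04 without control library 2. Cyp4f37 stood at -0.24 (SE 0.21), and at -0.47 without ethanol library 1, -0.12 without ethanol library 2 and -0.16 without ethanol library 3. The 7 family 4 genes tested under 1 TPM lay between -0.38 for Cyp4b1 and 0.20 for Cyp4f15, with none at an unadjusted p under 0.05.

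**Figure D4:**
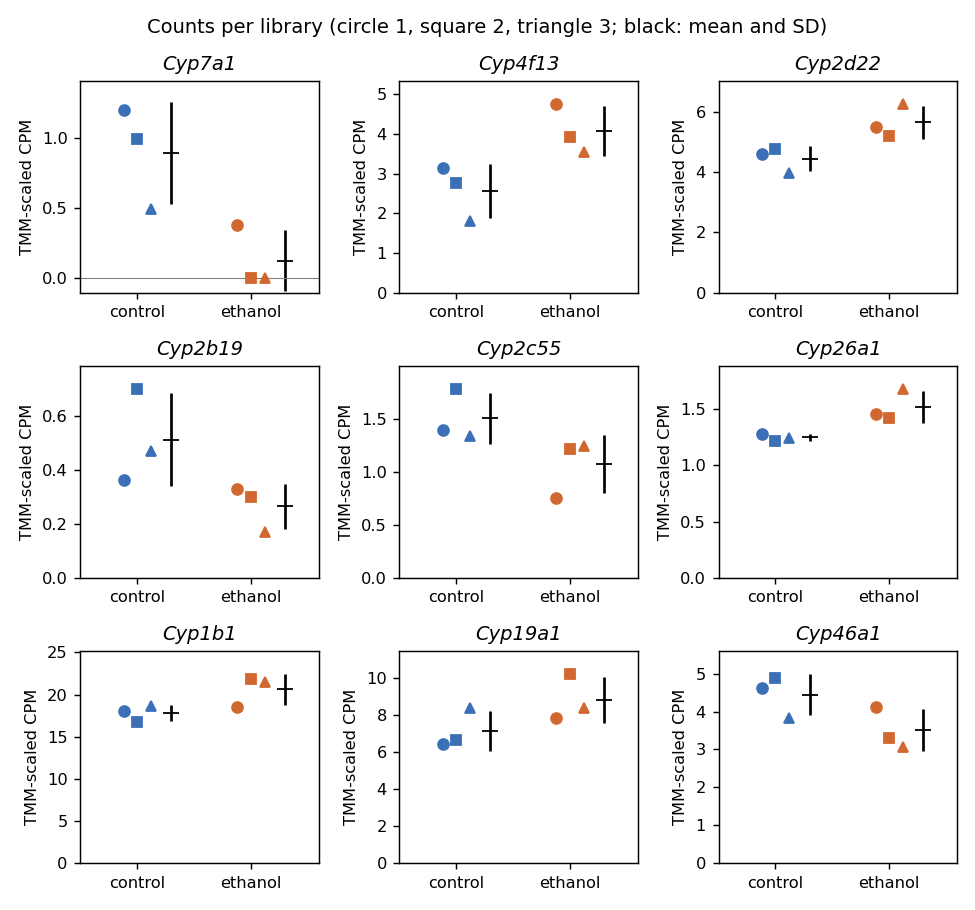
TMM-scaled CPM of 9 P450 genes, control against ethanol, with a circle, square and triangle for libraries 1, 2 and 3 and a black mean with its SD. Cyp7a1, Cyp2b19 and Cyp2c55 have all ethanol libraries below the controls, Cyp4f13, Cyp2d22 and Cyp26a1 have all above, and Cyp1b1, Cyp19a1 and Cyp46a1 overlap.

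Among the sterol and bile acid genes the values went in both directions, with 1 of 5 tested genes above 0. Cyp7a1 (Gene ID 13122; chromosome 4, 6265612 to 6275632), the rate-limiting enzyme of bile acid synthesis in liver, passed the filter on low counts through the control libraries, so its direction and p are given as a description. Its reads numbered 56, 44 and 21 in controls and 15, 0 and 0 with ethanol, or 1.20, 0.992 and 0.494 CPM against 0.378 CPM and 0. Its log2 fold change was -2.85 (SE 0.80, edgeR adjusted p = 0.187). The reads rest on a mean of 0.405 TPM in controls, so the gene was barely present on either diet. The only reads with ethanol were in library 1. Leaving it out gave an edgeR adjusted p of 0.0823, the lowest of 0.0823 to 0.468 over all alternatives, with no usable fold since the other two libraries are at 0. The control mean was 0.894 ± 0.362 CPM, and the ethanol mean was 0.126 ± 0.218 CPM (SD, n = 3). The 7 hepatocyte markers (Alb, Apoa1, Apoa2, Ttr, Fgb, Ahsg and Serpina1a) summed to 2.01 to 3.22 CPM on control diet and 1.99 to 5.44 CPM on ethanol. Alb was at 0 to 0.588 CPM on control diet and 0 to 2.20 CPM on ethanol, highest in ethanol library 2, where Cyp7a1 had 0 reads.

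Cyp46a1, the cholesterol hydroxylase of neurons, was at 4.62, 4.89 and 3.83 CPM on control diet and 4.13, 3.32 and 3.07 CPM on ethanol. The diets overlapped by ethanol library 1. This gave a fitted log2 difference of -0.35 (SE 0.16, edgeR adjusted p = 0.380). Cyp39a1, which acts on the product that Cyp46a1 makes, was at 7.27, 6.60 and 6.44 CPM on control diet and 7.0, 7.96 and 9.92 CPM on ethanol. Ethanol library 1 lay within the control range and the other two above it. Its fitted log2 difference of 0.29 (SE 0.14, edgeR adjusted p = 0.400) moved to 0.14 without ethanol library 3. Cyp27a1 stood at -0.04 (SE 0.11, 95% interval -0.29 to 0.20), and Cyp7b1 at -0.12 (SE 0.40) from 0.306 TPM. Cyp8b1, which shapes the bile acid pool in liver, had 2 reads in all.

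Of the steroid enzymes Cyp19a1 was the abundant one. Aromatase was at 6.41, 6.63 and 8.37 CPM on control diet and 7.83, 10.2 and 8.38 CPM on ethanol. The highest control lay among the ethanol libraries. The fitted log2 difference was 0.31 (SE 0.14, 95% interval -0.01 to 0.62, edgeR adjusted p = 0.388), and 0.18 without ethanol library 2. The sum of the 5 Leydig markers was also highest in that library, at 524.7 CPM, with Star at 166.2 CPM. The other Leydig markers peaked elsewhere, Insl3 in ethanol library 3, Hsd3b1 and Hsd3b6 in ethanol library 1 and Lhcgr in control library 2. The part of Leydig cells in the Cyp19a1 value was not tested. Cyp21a1, the adrenal hydroxylase, was at 2.89, 1.31 and 1.32 CPM on control diet and 1.94, 1.42 and 1.78 CPM on ethanol. Control library 1 alone set its mean, and the log2 fold change of -0.11 (SE 0.30) became 0.37 without that library. The adrenal genes Cyp11b1 and Cyp11b2 had 3 and 4 reads in all.

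For vitamin D and retinoic acid the values were small. Cyp2r1 stood at -0.05 (SE 0.13, 95% interval -0.34 to 0.24), with 5.71 ± 0.697 CPM on control diet and 5.51 ± 0.298 CPM on ethanol (SD, n = 3). Cyp24a1, which inactivates vitamin D, stood at 0.17 (SE 0.30) from 0.539 TPM, and Cyp27b1, which activates it, had 50 reads in all. Cyp26a1, which clears retinoic acid, was at 1.28, 1.22 and 1.25 CPM on control diet and 1.46, 1.42 and 1.68 CPM on ethanol. The diets did not overlap, but with 53 to 69 reads per library the log2 fold change of 0.28 had an SE of 0.19 (edgeR adjusted p = 0.568). Its relative Cyp26c1 had 14 reads in all. Cyp20a1, whose substrate is unknown, stood at 0.31 (SE 0.18, edgeR adjusted p = 0.486), and at 0.17 without control library 3.

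RNA of the redox partners, which include the proteins that feed electrons to the P450 enzymes, was far more abundant than that of most members. The differences between the diets were small. Of 12 genes in a list of redox partners, all tested, 1 was higher and 3 were lower at an unadjusted p under 0.05 (background 7.45% and 5.89%), with a median of -0.04 beside 0.0065 over all genes. Values of the mitochondrial pair were below 0. Fdx1, ferredoxin, was at 31.7, 29.1 and 33.9 CPM on control diet and 26.1, 26.2 and 29.1 CPM on ethanol. Its log2 fold change was -0.22 (SE 0.08, edgeR adjusted p = 0.292), and the diets just overlapped. Its reductase Fdxr stood at -0.20 (SE 0.08, edgeR adjusted p = 0.323), with no overlap between the diets. Por, the reductase of the endoplasmic reticulum, was at 16.8 ± 0.800 CPM on control diet and 14.6 ± 1.58 CPM on ethanol, with a fitted log2 difference of -0.21 (SE 0.10), and -0.13 without ethanol library 1. Cytochrome b5, Cyb5a, stood at 0.15 (SE 0.08).

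The heme-binding P450 partners Pgrmc1 and Pgrmc2 had opposite values. Pgrmc1 was at 101.1, 105.9 and 108.5 CPM on control diet and 120.9, 118.7 and 117.7 CPM on ethanol, with a fitted log2 difference of 0.18 (SE 0.06, edgeR adjusted p = 0.232). Pgrmc2 was at 52.2, 53.0 and 52.7 CPM on control diet and 43.3, 45.3 and 48.4 CPM on ethanol, with a fitted log2 difference of -0.20 (SE 0.07, edgeR adjusted p = 0.238). The diets did not overlap for either gene, and the difference between the 2 genes was not tested.

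**Figure D5:**
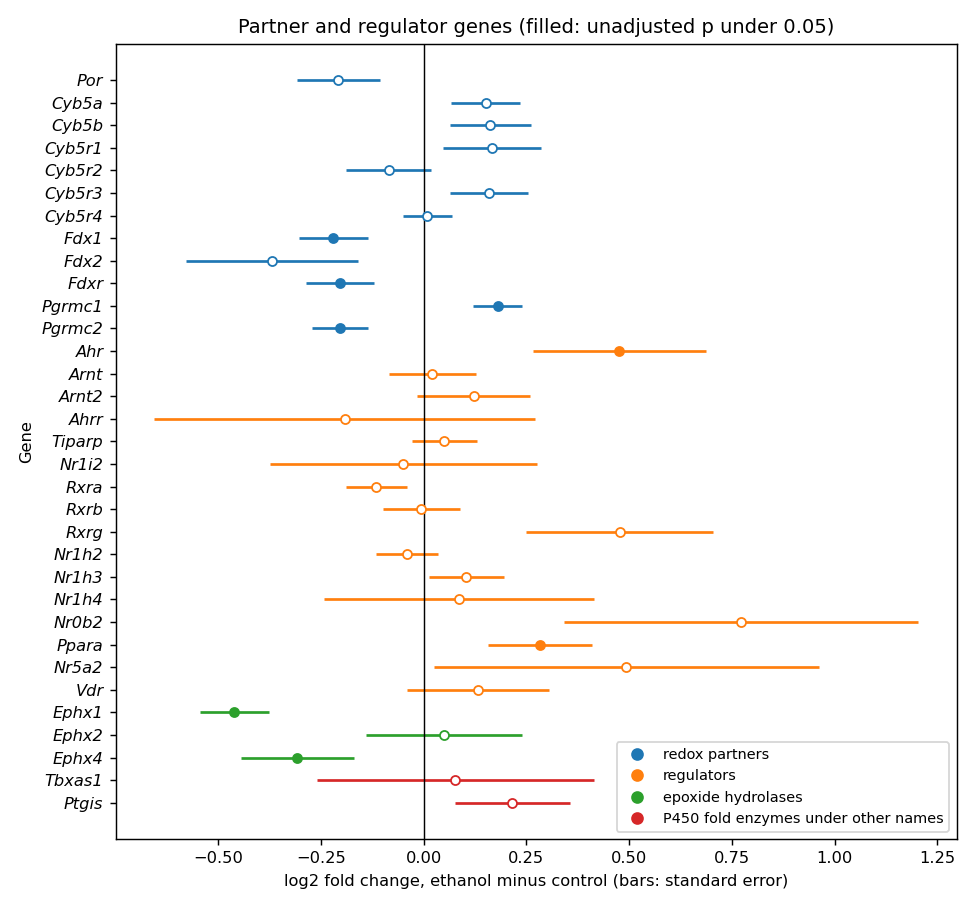
Log2 fold change, ethanol minus control, of the tested redox partners, regulators, epoxide hydrolases and P450-fold enzymes under other names, with bars for the standard error and filled points for an unadjusted edgeR p under 0.05. Fdx1, Fdxr, Pgrmc2, Ephx1 and Ephx4 are filled on the lower side, and Pgrmc1, Ahr and Ppara on the higher side.

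Of 18 transcription factors and repressors that set P450 levels, 16 were tested, and 2 were higher and 0 lower at an unadjusted p under 0.05 (background 7.45% and 5.89%). Their median was 0.10 beside 0.0065 over all genes, with 11 above 0, where the background is 51.5%. Ahr, the aryl hydrocarbon receptor, was at 1.25 ± 0.243 CPM on control diet and 1.73 ± 0.195 CPM on ethanol (SD, n = 3), with a fitted log2 difference of 0.48 (SE 0.21, edgeR adjusted p = 0.358) with overlapping diets. Its partner Arnt stood at 0.02 (SE 0.11). Tiparp and Ahrr, which the receptor is known to induce, stood at 0.05 (SE 0.08) and -0.19 (SE 0.46). Ppara, the fatty acid receptor that drives Cyp4a genes in liver, was at 4.60 ± 0.190 CPM on control diet and 5.6 ± 0.519 CPM on ethanol without overlap, with a fitted log2 difference of 0.28 (SE 0.13, edgeR adjusted p = 0.365). Its classical targets Cyp4a10 and Cyp4a14 had 4 and 53 reads in all libraries. The receptors for foreign compounds were scarce, with Nr1i2 at 0.421 TPM and Nr1i3 not tested.

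The epoxide hydrolases open the epoxides that P450 enzymes make, and 2 of the 3 tested were lower at an unadjusted p under 0.05 (background 5.89%), with a median of -0.31 beside 0.0065 over all genes. Ephx1, the microsomal form, had the largest difference among the named genes of the family and its partner lists with more than 20 CPM. It was at 69.1, 71.4 and 64.8 CPM on control diet and 52.5, 53.3 and 43.4 CPM on ethanol. Each ethanol library lay below each control. edgeR put the log2 fold change at -0.46 (SE 0.08), which missed the threshold in edgeR (adjusted p = 0.127) and passed in DESeq2 (-0.47, adjusted p = 0.000723), with 0.000723 to 0.424 over all alternatives. Ephx4 stood at -0.31 (SE 0.14, edgeR adjusted p = 0.364), also without overlap. The soluble form Ephx2 stood at 0.05 (SE 0.19). Of the P450-fold enzymes under other names, prostacyclin synthase Ptgis stood at 0.22 (SE 0.14) and thromboxane synthase Tbxas1 at 0.08 (SE 0.34).

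Depth set how firmly these values can be read. The median SE of a log2 fold change was 0.16 for the 18 members of at least 1 TPM and 0.32 for the 19 tested below it. The 52 members not tested were left out for low counts or had 0 reads. Without the filter 63 members were tested, and edgeR called 0 of them at an adjusted p under 0.05. Of the members outside the main test, the diets did not overlap for Cyp4a14 and Cyp26c1, which are named after their values were seen. Cyp4a14 had 9, 0 and 4 reads in controls and 8, 22 and 10 with ethanol, or 0.192, 0 and 0.0941 against 0.201, 0.503 and 0.244 CPM. Cyp26c1 had 2, 0 and 0 reads against 2, 4 and 6. For both genes the order of the nearest libraries rests on the scaling to library size, since their read counts do not separate the diets.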

How the data were processed

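The 6 testis libraries were strand-preserving total RNA libraries depleted of ribosomal RNA, per the labels' protocols. The submitters' processing notes name HISAT2 and mm10. The sources used here give no software versions, counter, strand option or gene annotation. One deposited table held whole-number read counts per gene without normalization, and FPKM and TPM values computed by the authors, per the file headers. Among low counts the value 2 was more frequent than 1 (6924 against 5609 values), and the cause was not tested. There were 0 sample columns outside the 6 libraries. None of the 15 library pairs agreed within sampling noise (chi-square per gene at least 7.18, where 1 is expected).

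The counts were tested with edgeR 4.0.16 (filterByExpr, TMM, quasi-likelihood F-test, no covariate) in R 4.3.3 on all genes, with Benjamini-Hochberg adjustment. Standard errors were derived from each fold and its F value. The procedure was tested on simulated data. Alternatives used DESeq2 1.42.0 and limma 3.58.1 (voom, or trend on log2 of TPM or FPKM plus a pseudocount of 1 or 0.1). Gene positions and sequences came from RefSeq tables of GRCm38.p6, the assembly of mm10, and shared 50-base windows from GENCODE M21 transcripts. A window was counted on either strand. Members and lists were chosen with earlier results of these data known. Named are members with a mean of at least 1 TPM, an unadjusted p under 0.05 or no overlap between diets, and the most abundant member of each role group. From the partner lists, genes at an unadjusted p under 0.05 and a fixed set (Por, Fdxr, Fdx1, Cyb5a, Pgrmc1, Ahr, Arnt, Ephx1, Ephx2) are named. Other genes were named after their values were seen. No protein sequences were used here.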

Additional observations from a re-analysis of the deposited data

How the results depend on the processing

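No member passed an adjusted p of 0.05 under any alternative run, or an adjusted p of 0.1 by edgeR. Members at an unadjusted p under 0.05 were 3 higher and 2 lower by edgeR. The higher count was 5 with library totals only. The lower count was 0 with a filter of 1 CPM in 3 libraries, which left the 2 lower members, Cyp7a1 and Cyp2b19, untested. It was also 0 with DESeq2, and 1 on log2(FPKM + 1), log2(TPM + 1) and log2(TPM + 0.1), and the cause of these was not tested. With 1 library left out the higher count ranged from 2 to 6 and the lower from 1 to 5, both highest without ethanol library 1. Partner and regulator genes were 3 higher and 5 lower; DESeq2 gave 1 higher, and with 1 library left out the counts were 1 to 3 and 2 to 4, both lowest without control library 1. On TPM, an alternative chosen after seeing the data, 6 members in place of 3 had all ethanol libraries above the controls. With a limit of 0.5 TPM 28 members counted as expressed.

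Of 542 values of named genes under the alternatives 16 changed sign, and 1 passed the threshold that it missed by edgeR (Ephx1 by DESeq2, -0.47). Cyp27a1 turned to 0.0026 on both TPM scales and ranged from -0.10 to 0.012 with 1 library left out, positive without ethanol library 2. Cyp2r1 turned to 0.014 and 0.016 on TPM and ranged from -0.13 to 0.035, positive without control library 3. Cyp2u1 ranged from -0.034 without control library 3 to 0.33. Cyp21a1 turned to 0.011 and 0.040 on TPM and ranged from -0.31 to 0.37, positive without control library 1 or ethanol library 2. Arnt ranged from -0.070 to 0.11, negative without control library 1, control library 3 or ethanol library 1, and Ephx2 from -0.056 to 0.18, negative without control library 3 or ethanol library 1. The median of all genes was 0.04 on log2(TPM + 1) and 0.06 on log2(TPM + 0.1).

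Libraries of the 2 diets share replicate numbers, but their deviations from the group means correlated at -0.17, 0.0075 and 0.44 over 13229 genes, so only pair 3 of the 3 was above 0.1. The unlike pair of control library 2 and ethanol library 1 stood at 0.48. The numbers were therefore not taken to pair the libraries. A fit with the replicate block had 3 members higher and 3 lower at an unadjusted p under 0.05, and 0 at an adjusted p under 0.05.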
